A study of Mus musculus with 12 samples.

Results

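Carriers of the SLC25 family, the proteins that move metabolites across the inner mitochondrial membrane, were followed in mouse liver over the first hours after an injection of concanavalin A (ConA), a plant lectin that activates T cells and brings on fulminant hepatitis. Members were the genes whose probe sets on the array carried a single gene symbol made of Slc25a and a number, and each gene was read from its probe set with the highest mean over the 12 arrays. This gave 44 genes, covered by 93 probe sets, of 18193 genes in all. The rule itself used no difference between groups, but the family was chosen with earlier results of these data known. Whole liver of male Balb/c mice, 8 to 10 weeks old, gave total RNA for 1 Affymetrix mouse expression array per mouse, with 3 arrays at each time. The groups were control mice at 0 h and mice killed at 1 h, at 3 h or at 6 h following 20 mg/kg ConA in the tail vein. By their labels the 0 h mice were untreated, whereas the study's methods give the controls an injection of PBS. Controls existed at 0 h only, so an effect of ConA and one of time of day cannot be told apart.

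SLC25 proteins share a fold of repeated membrane-spanning helices and bind their substrate from either side of the membrane in turn. Most exchange one solute for another, and through them the mitochondrion imports phosphate and ADP, exports ATP and citrate, and takes part in fatty acid oxidation, the urea cycle, gluconeogenesis and haem synthesis. In hepatocytes the carriers of aspartate, ornithine, citrate and acylcarnitine link the enzymes of the matrix with those of the cytosol.

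The deposited values were linear probe set signals, and log2 changes below are differences of mean log2 signals between 3 ConA arrays and the 3 control arrays, tested with limma over all genes with p adjusted by Benjamini-Hochberg. The 3 arrays at 3 h had the lowest median signals, 13.7 to 14.8, against 15.6 to 20.4 on the other 9, and the median log2 change of all genes at 3 h was -0.21. None of the 5 measured hepatocyte markers passed the test at any time, and their summed signal was 49880 to 51680 at 6 h and 48720 to 54570 in controls. All 4 measured neutrophil markers were higher at each time, with a summed signal of 1456 to 2283 at 6 h and 50.2 to 66.3 in controls. At 6 h 4 of 5 stellate cell markers were lower, 3 of 4 platelet, 2 of 4 natural killer cell, 1 of 5 T cell and 1 of 4 cholangiocyte markers were higher, none of 3 B cell markers was called, and the markers of Kupffer cells, monocytes and sinusoidal endothelial cells went both ways. The part of these cells in the carrier results was not tested, and in whole liver fewer cells of a type and less RNA per cell cannot be told apart.

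More carriers were lower than higher at 3 h and 6 h after ConA. At 1 h none of the 44 passed the test in either direction (adjusted p under 0.05 from limma), beside 1.50% of all genes higher and 0.148% lower. An unadjusted p under 0.05 was had by 4, and the share of all genes at that looser threshold was not taken. At 3 h 13 carriers were lower and none higher, beside 14.7% of all genes lower and 5.15% higher. At 6 h 16 carriers were lower and 2 higher, beside 12.7% of all genes lower and 15.4% higher. All 3 arrays lay below all 3 control arrays for 26 carriers at 3 h, beside 28.7% of all genes, and for 18 at 6 h, beside 18.5%. Over the time course 25 of 44 passed the F test, beside 38.0% of all genes. The median log2 change of the carriers was 0.003 at 1 h, against 0.08 for all genes. It was -0.35 at 3 h, against -0.21, and -0.29 at 6 h, against 0.02. After centring, which puts the median of all genes at 0, the carrier median at 3 h was -0.14, and without ConA 6 h replicate 3 the one at 6 h was -0.19.

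**Figure D1:**
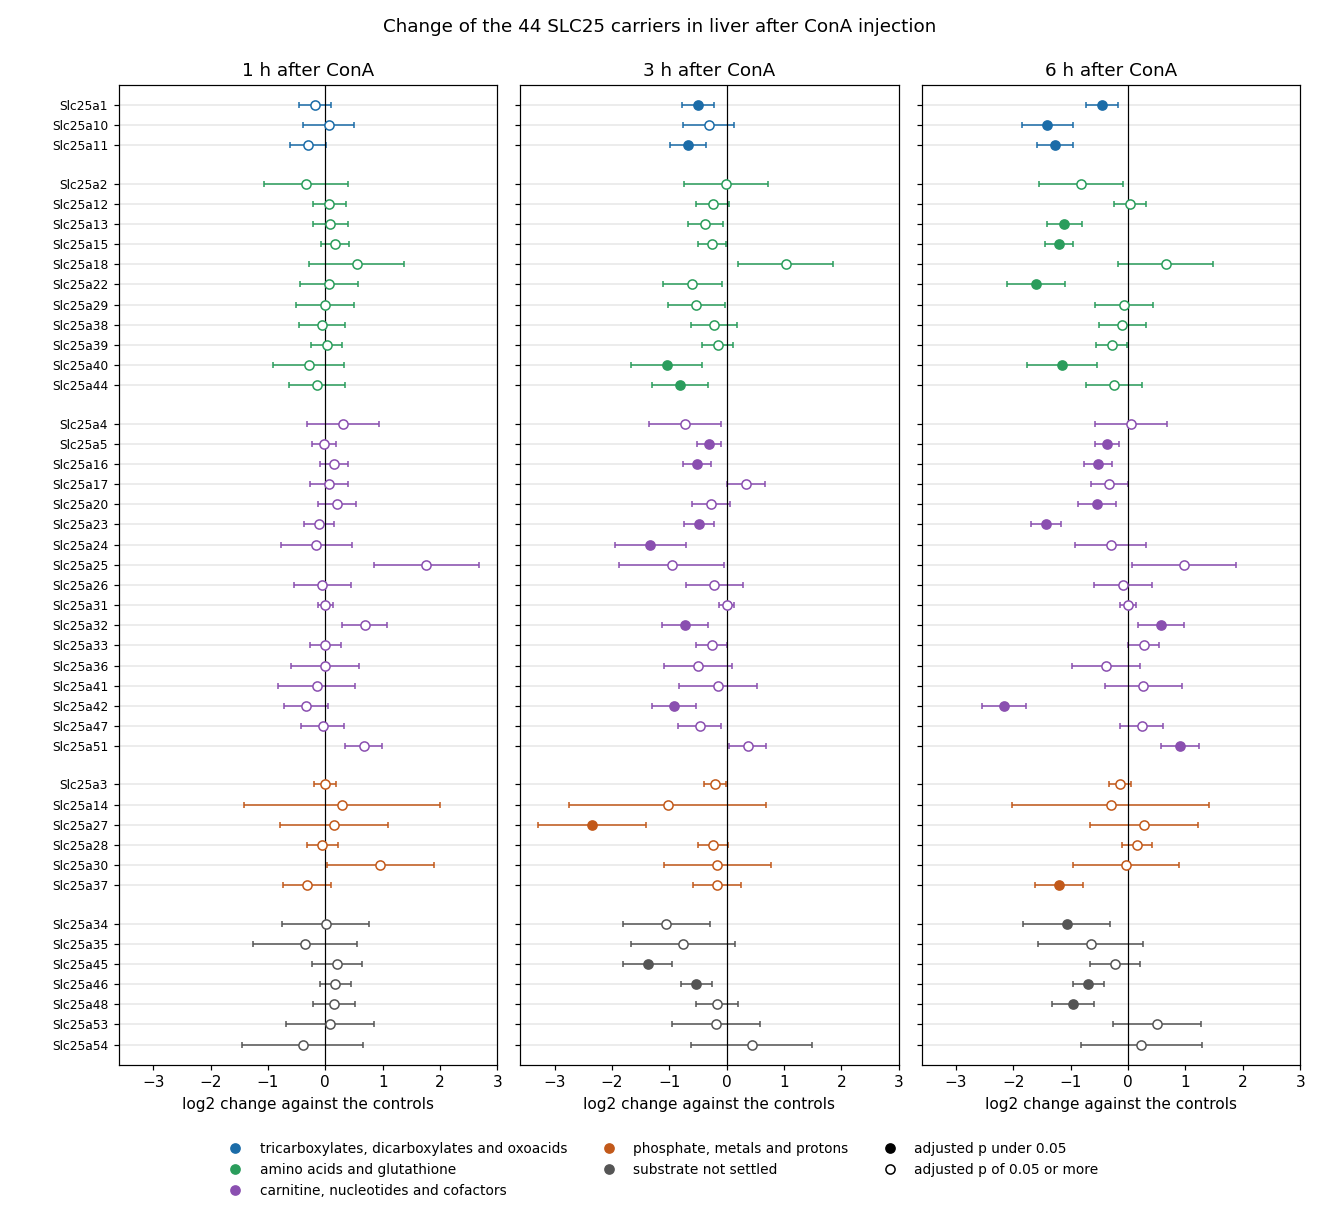
Log2 change against the control arrays (horizontal axes) of the 44 SLC25 carriers (rows, coloured by kind of substrate) at each time after ConA, with 95% confidence intervals of the limma fit as bars and 3 arrays per group. Filled points have an adjusted p under 0.05: none at 1 h, 13 below 0 at 3 h, and 16 below and 2 above 0 at 6 h.

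Carriers were also brighter than most genes, since 33 of 44 had a mean above that of the median gene, and brighter genes were called more often. Among the 9096 brighter genes alone, 15 of these 33 carriers were lower at 6 h, beside 24.6% of the brighter genes, and 3 were higher, beside 28.8%. At 3 h 16 of the 33 were lower, beside 31.8% of the brighter genes. In this smaller test 3 of the 33 were higher at 1 h, beside 4.28% of the brighter genes. These were Slc25a25 (adjusted p = 0.012), Slc25a51 (adjusted p = 0.019) and Slc25a32 (adjusted p = 0.040).

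The calls at 6 h and those at 3 h differed in how they held under another scaling of the arrays. All 16 lower and both higher carriers at 6 h were called the same way after quantile normalization and after centring each array on its median. Both scalings added Slc25a2, Slc25a3 and Slc25a39 to those lower. Of all 18193 genes, 3226 were lower at 6 h after quantile normalization and 3240 after centring, against 2307 as deposited. Of the 13 lower carriers at 3 h, 12 were called after quantile normalization and 6 after centring, and the 5 called under both were Slc25a11, Slc25a24, Slc25a27, Slc25a42 and Slc25a45. Centring ended the calls at 3 h of Slc25a1, Slc25a5, Slc25a16, Slc25a23, Slc25a40, Slc25a44 and Slc25a46, and quantile normalization that of Slc25a32. With centring 3 carriers were called higher at 3 h, namely Slc25a17, Slc25a18 and Slc25a51, beside 1521 of all genes. With quantile normalization 2 were, Slc25a17 and Slc25a18, beside 1449 of all genes. As deposited 937 genes were higher and 2676 lower at 3 h. The genes lower at 3 h numbered 1251 after centring and 1643 after quantile normalization. Without ConA 3 h replicate 3 the number of carriers lower at 3 h was 7, beside 1762 of all genes.

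Compared from one time to the next, 13 carriers were lower and none higher at 3 h than at 1 h, beside 19.9% of all genes lower and 3.08% higher. At 6 h 10 were lower and 9 higher than at 3 h, beside 3.83% of all genes lower and 18.8% higher. All 10 lower calls of the later step held under both other scalings. Of the 9 higher ones, only Slc25a25, Slc25a27, Slc25a32 and Slc25a45 did. The lower and higher calls numbered 14 and 4 after quantile normalization, beside 1863 and 1694 of all 18193 genes. After centring they numbered 18 and 4, beside 2276 and 1206 genes, where the deposited values gave 697 and 3414 genes. Of the 13 that were lower at 3 h than at 1 h, Slc25a25, Slc25a27, Slc25a32, Slc25a45 and Slc25a46 held under both scalings. There the lower and higher calls numbered 6 and 1 after quantile normalization, beside 973 and 1005 genes. After centring they numbered 5 and 1, beside 904 and 1001 genes, where the deposited values gave 3620 and 561 genes. Leaving out replicate 1 or replicate 2 of ConA 1 h took the count of 13 to 7, beside 1872 and 2502 of all genes. Leaving out ConA 3 h replicate 3 took it to 8, beside 2070 genes. With all arrays 3620 genes were lower in this step. The count of 9 was 5 without ConA 6 h replicate 2, beside 2248 of all genes, against 3414 with all arrays. The comparisons share the arrays of 1 h, 3 h or the controls. In none of the 5 comparisons was a call made for 16 of the 44 carriers.

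**Figure D2:**
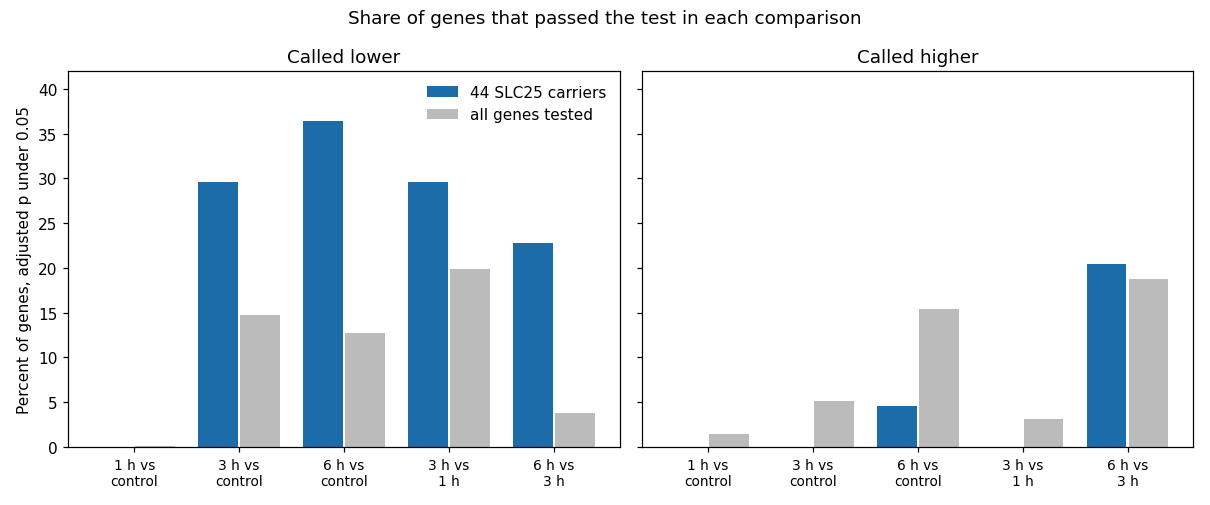
Percent of genes with an adjusted p under 0.05 (vertical axis) in each of 5 comparisons (horizontal axis), called lower on the left and called higher on the right, for the 44 SLC25 carriers (left bar of each pair) and for all genes tested (right bar). At 6 h against the controls the lower share is 36.4% for the carriers and 12.7% for all genes.

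All 3 measured carriers of citric acid cycle intermediates were lower at 6 h, beside 12.7% of all genes. Slc25a10, which exchanges malate or succinate for phosphate, had signals of 1120, 1166 and 998 in controls, 1370, 1162 and 921 after 1 h, 950.0, 722 and 994 after 3 h and 481, 443 and 327 after 6 h. The 6 h arrays lay below every other array by a wide margin, while the 3 h arrays reached almost to the dimmest control. Its log2 change at 6 h was -1.41 (SE 0.197, adjusted p = 0.00065), the level at 6 h was lower than at 3 h (log2 difference -1.10, adjusted p = 0.0045), and its other probe set changed by -1.25 (adjusted p = 0.0036 over all probe sets).

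Slc25a11, the exchanger of 2-oxoglutarate and malate in the malate-aspartate shuttle, had signals of 679, 772 and 578.5 in controls, 664, 504 and 480.0 after 1 h, 436, 408 and 422 after 3 h and 279, 281 and 275 after 6 h. The 3 h and 6 h arrays lay close together within their groups and overlapped neither the controls nor each other. The carrier was lower at 3 h (log2 change -0.67, SE 0.139, adjusted p = 0.0093) and lower again at 6 h (-1.27, adjusted p = 0.00017), where it was also below its 3 h level (-0.60, adjusted p = 0.014).

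Slc25a1, which exports citrate for fatty acid and sterol synthesis, had signals of 1834, 2062 and 1825 in controls, 2031, 1583 and 1467 after 1 h, 1303, 1458 and 1271 after 3 h and 1392, 1437 and 1327 after 6 h. The 3 h and 6 h arrays overlapped each other and lay below all controls. The log2 change was -0.50 at 3 h (SE 0.125, adjusted p = 0.021) and, by 6 h, -0.46 (adjusted p = 0.022). Its call at 3 h was lost without control replicate 2, ConA 3 h replicate 1 or ConA 3 h replicate 3 (adjusted p = 0.061 to 0.074) and after centring (adjusted p = 0.14), and its call at 6 h without control replicate 2, ConA 6 h replicate 1 or ConA 6 h replicate 3 (adjusted p = 0.054 to 0.074).

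Of the 11 measured carriers of amino acids and glutathione, 4 were lower at 6 h, beside 12.7% of all genes, 2 at 3 h, beside 14.7%, and none higher at any time. Slc25a15, the ornithine carrier that serves the urea cycle, had signals of 2856, 3392 and 3019 in controls, 3636, 3493 and 3294 after 1 h, 2652, 2324 and 2751 after 3 h and 1290, 1498 and 1236 after 6 h. Its level at 6 h was under that of every array of the other times, and the 3 h arrays lay just below the controls. The log2 change at 6 h was -1.20 (SE 0.109, adjusted p = 6.1e-05) with -0.94 against 3 h (adjusted p = 0.00090), and its other probe set changed by -1.45 at 6 h (adjusted p = 0.00026 over all probe sets).

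Slc25a13, or citrin, which sends aspartate to the cytosol in exchange for glutamate and whose loss in humans causes citrullinaemia, had signals of 1147, 1271 and 1025 in controls, 1306, 1206 and 1135 after 1 h, 846, 893 and 900.4 after 3 h and 569.7, 600.4 and 431 after 6 h. Again the 6 h arrays were below all others. The log2 change at 6 h was -1.11 (SE 0.135, adjusted p = 0.00030) and the difference from 3 h -0.74 (adjusted p = 0.0050). At 3 h it did not pass (-0.38, adjusted p = 0.083), though without ConA 6 h replicate 3 it did (adjusted p = 0.033). Its close relative Slc25a12, the main aspartate carrier of brain and muscle, stood 0.03 above the controls at 6 h on the log2 scale and did not pass (adjusted p = 0.91).

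Slc25a22, a glutamate carrier, had signals of 627, 1079 and 711 in controls, 938, 795 and 738 after 1 h, 405, 553 and 617 after 3 h and 223, 263 and 292 after 6 h. The controls spread widely, but all 6 h arrays were well under the dimmest of them. It was 3.04-fold lower at 6 h (log2 change -1.60, SE 0.228, adjusted p = 0.00071) and lower than at 3 h (-1.00, adjusted p = 0.012).

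Slc25a40, one of a pair of carriers needed for mitochondrial glutathione, had signals of 65.2, 109 and 94.5 in controls, 105, 59.3 and 59.0 after 1 h, 47.2, 36.7 and 43.95 after 3 h and 39.85, 48.2 and 32.0 after 6 h. All arrays at 3 h and 6 h were under the controls and overlapped each other. It was lower at 6 h (log2 change -1.15, SE 0.274, adjusted p = 0.012) and at 3 h (-1.05, adjusted p = 0.026), with a difference of -0.10 for 6 h over 3 h (95% interval ± 0.618, adjusted p = 0.86). The call at 3 h was lost without control replicate 2 or 3 or without ConA 3 h replicate 2 or 3 (adjusted p = 0.064 to 0.092). The other carrier of the pair, Slc25a39, stood at -0.28 at 6 h and did not pass (adjusted p = 0.12), but was called lower after quantile normalization (-0.42, adjusted p = 0.0075) and centring (-0.42, adjusted p = 0.020).

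Slc25a44, a carrier of branched-chain amino acids, had signals of 363, 359.7 and 353 at 3 h, against 676, 568 and 658 in controls, and was lower at 3 h (log2 change -0.82, SE 0.217, adjusted p = 0.028). At 6 h it did not pass (-0.24, adjusted p = 0.49). The call at 3 h was lost when any 1 of the 3 controls or of the 3 arrays at 3 h was left out (adjusted p = 0.050 to 0.085). The amino acid carriers Slc25a2, Slc25a18, Slc25a29 and Slc25a38 passed no test against the controls as deposited. Under quantile normalization and under centring, the dim Slc25a2 was called lower at 6 h (adjusted p = 0.032 and 0.031) and the dim Slc25a18 higher at 3 h (adjusted p = 0.047 and 0.045).

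E-boxes, the letters CACGTG bound by basic helix-loop-helix factors, stood in the promoters of 3 of the lower carriers just named. RefSeq gives promoters (250 bases before to 50 after a start, build GRCm38.p6) for 34 of the 44 genes, and 7 of the 34 held the motif, beside 8.09% of all genes with a promoter. Of these 7, Slc25a1, Slc25a13 and Slc25a15 were lower at 6 h, Slc25a33 was higher at 6 h than at 3 h, and Slc25a14, Slc25a31 and Slc25a36 were not called, whereas 14 of the 34 were lower at 6 h. The motif reads the same on both strands, and a match is a description of the letters alone. Slc25a15 has another listed start, whose promoter (chr8:22398572-22398871) holds no E-box. For the 3 lower genes the promoters with the motif are shown on the strand of the gene, 5′ to 3′, with the E-box in capitals.
Slc25a1, chr16:17928170-17928469, minus strand: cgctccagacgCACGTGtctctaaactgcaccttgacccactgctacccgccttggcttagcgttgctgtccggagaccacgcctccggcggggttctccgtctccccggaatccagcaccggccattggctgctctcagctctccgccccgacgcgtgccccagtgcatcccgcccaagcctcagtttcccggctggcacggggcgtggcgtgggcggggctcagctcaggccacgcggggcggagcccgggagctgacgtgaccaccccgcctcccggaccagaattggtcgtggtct
Slc25a13, chr6:6217124-6217423, minus strand: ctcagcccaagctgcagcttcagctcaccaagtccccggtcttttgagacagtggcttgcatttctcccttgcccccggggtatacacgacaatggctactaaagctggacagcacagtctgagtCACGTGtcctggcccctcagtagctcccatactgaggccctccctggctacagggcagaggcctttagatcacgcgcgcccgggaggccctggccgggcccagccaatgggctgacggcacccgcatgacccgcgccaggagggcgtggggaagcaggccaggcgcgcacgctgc
Slc25a15, chr8:22398228-22398527, minus strand: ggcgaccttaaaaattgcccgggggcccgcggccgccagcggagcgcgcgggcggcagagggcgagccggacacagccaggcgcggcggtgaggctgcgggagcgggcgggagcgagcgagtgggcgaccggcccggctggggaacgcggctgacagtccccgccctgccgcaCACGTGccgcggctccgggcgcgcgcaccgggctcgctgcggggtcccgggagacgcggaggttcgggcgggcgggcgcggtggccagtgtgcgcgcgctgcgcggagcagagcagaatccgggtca

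**Figure D3:**
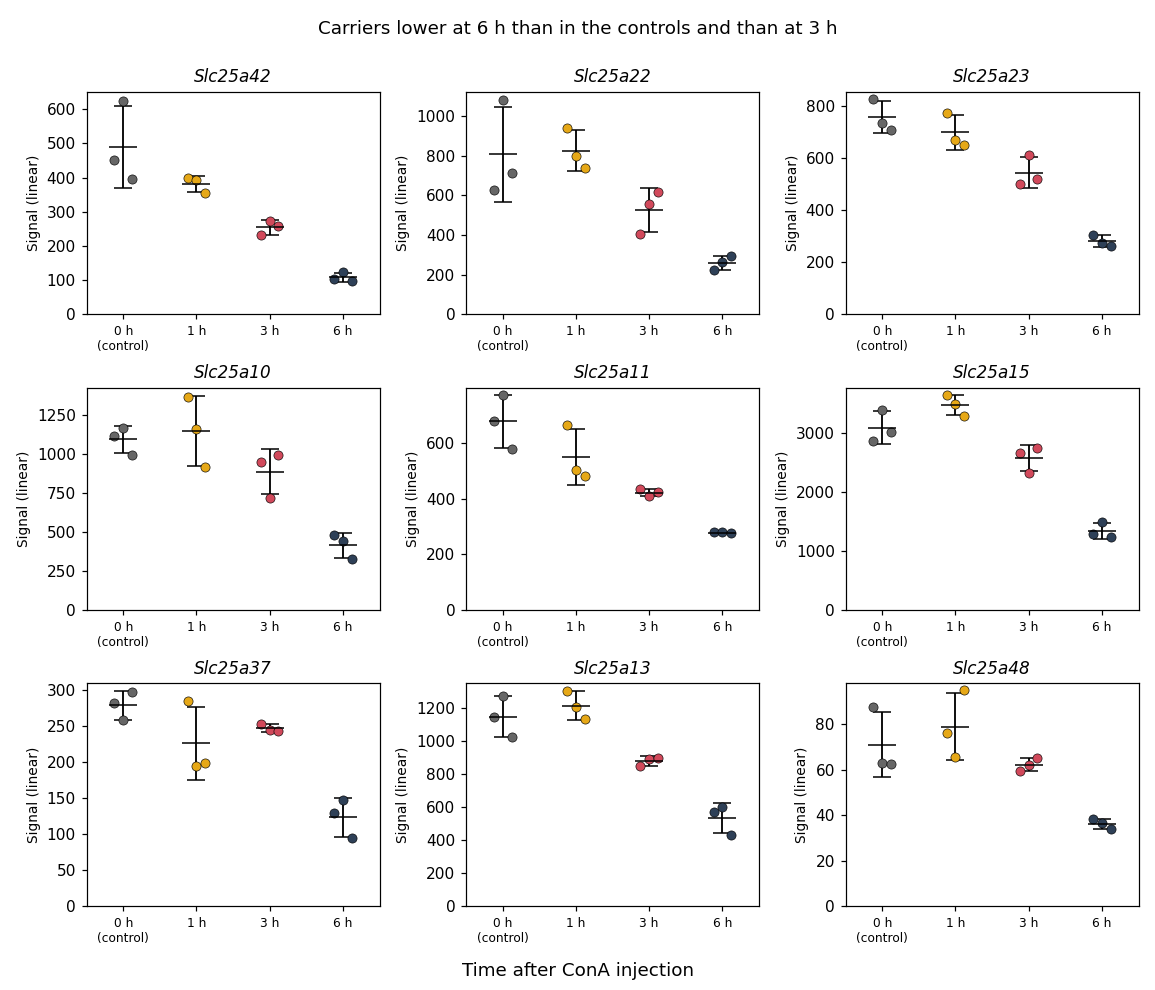
Signal on each array (points, vertical axes from 0) over time after ConA (horizontal axes) for the 9 carriers that were lower at 6 h than in controls and than at 3 h, with the mean and SD of 3 arrays in black. For Slc25a42 the 6 h arrays sit between 96.5 and 124, below every array of the earlier times.

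Carnitine, nucleotide and cofactor carriers moved in both directions: of 17, 6 were lower at 3 h, beside 14.7% of all genes, and at 6 h 5 were lower and 2 higher, beside 12.7% and 15.4%. Slc25a42, which in human cells takes coenzyme A into the matrix in exchange for adenine nucleotides, had signals of 451, 625 and 396 in controls, 398, 393 and 354 after 1 h, 231, 272 and 259.5 after 3 h and 102, 124 and 96.5 after 6 h. The groups at 3 h and 6 h overlapped neither the controls nor each other, and its change at 6 h was the lowest of the 44. It was 4.50-fold lower at 6 h (log2 change -2.17, SE 0.170, adjusted p = 2.6e-05), after -0.92 at 3 h (adjusted p = 0.0053), and lower at 6 h than at 3 h (-1.25, adjusted p = 0.0016). Its other probe set was dim, with a mean signal of 5.52, and averaging both ended the calls (log2 change -0.67 at 6 h, adjusted p = 0.17).

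Slc25a16, tied to coenzyme A supply, was lower at 3 h (log2 change -0.52, SE 0.108, adjusted p = 0.0095) and at 6 h (-0.53, adjusted p = 0.0053), with signals of 371.5, 401 and 332 at 6 h against 588, 533 and 471 in controls. Slc25a20, which carries acylcarnitines in for fatty acid oxidation, had signals of 1189, 1060 and 868 in controls, 1295, 1163 and 1113 after 1 h, 984, 875 and 719 after 3 h and 731, 735.5 and 659 after 6 h. Only its 6 h arrays were clear of the controls. The carrier was lower at 6 h (log2 change -0.54, SE 0.147, adjusted p = 0.021), a call lost without control replicate 1, control replicate 2 or ConA 6 h replicate 3 (adjusted p = 0.061 to 0.076), and its other probe set had -0.69 (adjusted p = 0.0056 over all probe sets).

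The 3 calcium-sensitive carriers of ATP-Mg and phosphate, Slc25a23, Slc25a24 and Slc25a25, which set the adenine nucleotide pool of the matrix, each had a time course of its own. Slc25a23 had signals of 828, 738 and 709.6 in controls, 777, 672 and 652 after 1 h, 502, 613 and 522 after 3 h and 306.5, 276 and 261 after 6 h. It was lower at 3 h (log2 change -0.48, SE 0.116, adjusted p = 0.019) and much lower at 6 h (-1.43, adjusted p = 3.1e-05), with -0.95 for 6 h over 3 h (adjusted p = 0.00098). The call at 3 h was lost without control replicate 1, ConA 3 h replicate 1 or ConA 3 h replicate 3 (adjusted p = 0.063 to 0.067) and after centring (adjusted p = 0.27).

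Slc25a24 had signals of 30.7, 37.0 and 26.25 in controls, 34.3, 28.1 and 22.3 after 1 h, 16.9, 7.82 and 14.15 after 3 h and 26.5, 23.7 and 25.3 after 6 h. All 3 arrays at 3 h were below every other array. It was lower at 3 h (log2 change -1.33, SE 0.276, adjusted p = 0.0094), and its 6 h level overlapped the controls (-0.30, adjusted p = 0.49) and was above that at 3 h (1.03, adjusted p = 0.025, though 0.13 under either other scaling).

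Slc25a25 had signals of 169, 219 and 111 in controls, 447, 580.3 and 618 after 1 h, 91.7, 90.2 and 67.7 after 3 h and 158, 441.5 and 451 after 6 h. All 3 arrays at 1 h were above, and all 3 at 3 h below, the controls, while at 6 h 1 array sat among the controls and the others well above. The F test passed (adjusted p = 0.0030), and the level at 3 h was far under that at 1 h (log2 difference -2.72, SE 0.404, adjusted p = 0.0024) and that at 6 h (1.94 for 6 h over 3 h, adjusted p = 0.0088). Against the controls no single time passed, the log2 change being 1.76 at 1 h (adjusted p = 0.077), -0.96 at 3 h (adjusted p = 0.13) and, by 6 h, 0.98 (adjusted p = 0.11). Without ConA 6 h replicate 1, the low array at that time, all 3 passed. The adjusted p was then 0.013 at 1 h, 0.033 at 3 h and 0.0061 at 6 h (1.48). Its 2 other probe sets, with mean signals of 28.4 and 9.46, were called in no comparison over all probe sets. Against the controls the brighter one had 2.48 after 1 h (adjusted p = 0.21) and 1.52 after 6 h (adjusted p = 0.22). After 3 h it had -0.05, and the dimmer one 0.52 (adjusted p = 0.74). From 1 h to 3 h the brighter one changed by -2.53 (adjusted p = 0.055). Neither showed a clear fall under the controls at 3 h, so that fall rests on the chosen probe set.

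The cAMP response element TGACGTCA, the letters bound by CREB, was found in the promoters of 2 of the 34 carriers with a RefSeq promoter, beside 2.03% of all genes. These were Slc25a25, at the most downstream of its 3 listed starts, and Slc25a36, a pyrimidine nucleotide carrier that was not called at any time (log2 changes of -0.01 at 1 h, -0.51 at 3 h and -0.39 at 6 h). The motif reads the same on both strands, and both promoters are shown on the strand of the gene, 5′ to 3′, with this element in capitals and, for Slc25a36, its E-box too.
Slc25a25, chr2:32424017-32424316, minus strand: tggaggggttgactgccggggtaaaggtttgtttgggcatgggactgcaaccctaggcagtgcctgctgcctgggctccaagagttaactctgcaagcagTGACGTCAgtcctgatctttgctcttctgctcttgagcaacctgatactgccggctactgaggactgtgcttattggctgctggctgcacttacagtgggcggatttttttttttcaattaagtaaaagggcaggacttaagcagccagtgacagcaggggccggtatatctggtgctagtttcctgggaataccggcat
Slc25a36, chr9:97110992-97111291, minus strand: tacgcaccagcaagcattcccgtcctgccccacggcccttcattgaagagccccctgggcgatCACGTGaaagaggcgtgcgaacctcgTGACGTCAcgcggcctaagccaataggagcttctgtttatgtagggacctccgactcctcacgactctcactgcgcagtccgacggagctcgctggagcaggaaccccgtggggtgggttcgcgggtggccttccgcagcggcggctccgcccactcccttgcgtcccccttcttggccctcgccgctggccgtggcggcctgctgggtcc

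Slc25a32, a carrier of folate and FAD, had signals of 81.1, 105 and 59.8 in controls, 132, 131 and 122 after 1 h, 53.1, 46.1 and 46.3 after 3 h and 110.4, 123 and 126 after 6 h. The arrays of each time stood clear of the controls, above them at 1 h and 6 h and below them at 3 h. Its signal was lower at 3 h (log2 change -0.72, SE 0.178, adjusted p = 0.020), higher at 6 h (0.58, adjusted p = 0.036), and 1.30 higher at 6 h than at 3 h on the log2 scale (adjusted p = 0.0016). The difference at 1 h missed the threshold (0.68, adjusted p = 0.12), but passed without control replicate 2 (0.88, adjusted p = 0.023) and with the probe sets averaged (0.91, adjusted p = 0.013). The call at 3 h was lost without control replicate 1 or ConA 3 h replicate 2 or 3 (adjusted p = 0.059 to 0.064). The call at 6 h was lost without control replicate 1 or 3, ConA 1 h replicate 2, ConA 3 h replicate 3 or any 1 of the 6 h arrays (adjusted p = 0.051 to 0.10). Its 2 other probe sets, with mean signals of 11.1 and 56.1, were not called at 3 h or 6 h. Over all probe sets they had 0.07 (adjusted p = 0.93) and -0.76 (adjusted p = 0.088) at 3 h. At 6 h they had 0.305 (adjusted p = 0.43) and 0.76 (adjusted p = 0.072). At 1 h the dimmer one was called higher (1.235, adjusted p = 0.034).

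Slc25a51, the NAD+ carrier of human mitochondria, was the other member that rose by 6 h. Its signals were 335, 354 and 412.5 in controls, 584, 594 and 565 after 1 h, 498, 400.5 and 524 after 3 h and 575, 782 and 710.1 after 6 h. Every array at 1 h and 6 h exceeded the controls, and at 3 h 1 array fell within them. The log2 change was 0.67 at 1 h (adjusted p = 0.060), 0.37 at 3 h (adjusted p = 0.11) and, by 6 h, 0.90 (SE 0.144, adjusted p = 0.0014). At 6 h 1 of its other probe sets was higher too (1.13, adjusted p = 0.0078 over all probe sets), while the remaining one had 0.56 (adjusted p = 0.18). At 1 h it passed without ConA 3 h replicate 2 (adjusted p = 0.048) or ConA 6 h replicate 1 (adjusted p = 0.042).

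Slc25a47, a carrier found mainly in liver, had signals of 4251, 5153 and 3308 in controls, 3750, 4488 and 3893 after 1 h, 2837, 2914 and 3277 after 3 h and 4841, 5571 and 4394 after 6 h. The 3 h arrays were the lowest of the 12, and 1 control was close to them. Against the controls it had -0.47 at 3 h (SE 0.164, adjusted p = 0.075) and, by 6 h, 0.24 (adjusted p = 0.35). Without control replicate 3 the change at 3 h passed (-0.64, adjusted p = 0.019). The level at 6 h was higher than at 3 h (0.71, adjusted p = 0.014), a call lost after quantile normalization (adjusted p = 0.059) and centring (adjusted p = 0.13).

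Among the ADP/ATP carriers, Slc25a5, the main form outside muscle, had signals of 3582, 3519 and 3509 at 3 h and 3384, 3413 and 3380 at 6 h, against 4389, 4374 and 4394 in controls. The shifts were small but the arrays of a group lay close together, and it was lower at 3 h (log2 change -0.31, SE 0.094, adjusted p = 0.046) and at 6 h (-0.37, adjusted p = 0.016). Its call at 3 h was lost when any of 10 arrays was left out (adjusted p = 0.061 to 0.11) and after centring (-0.07, adjusted p = 0.75). Slc25a4, the muscle form, was lower at 3 h than at 1 h (-1.03, adjusted p = 0.029, though 0.15 and 0.13 under the other scalings), and Slc25a31, the testis form, was under the floor of 3.04 on all 12 arrays. Slc25a17, a peroxisomal carrier of coenzyme A and related cofactors, was lower at 6 h than at 3 h (-0.66, adjusted p = 0.011), and at 3 h it had 0.33 against the controls (adjusted p = 0.14). Slc25a33, which carries pyrimidine nucleotides, was higher at 6 h than at 3 h (0.53, adjusted p = 0.012), and that call was lost under both other scalings. Slc25a26, which imports S-adenosylmethionine, and Slc25a41, a short relative of the ATP-Mg carriers, were called in none of the 5 comparisons.

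**Figure D4:**
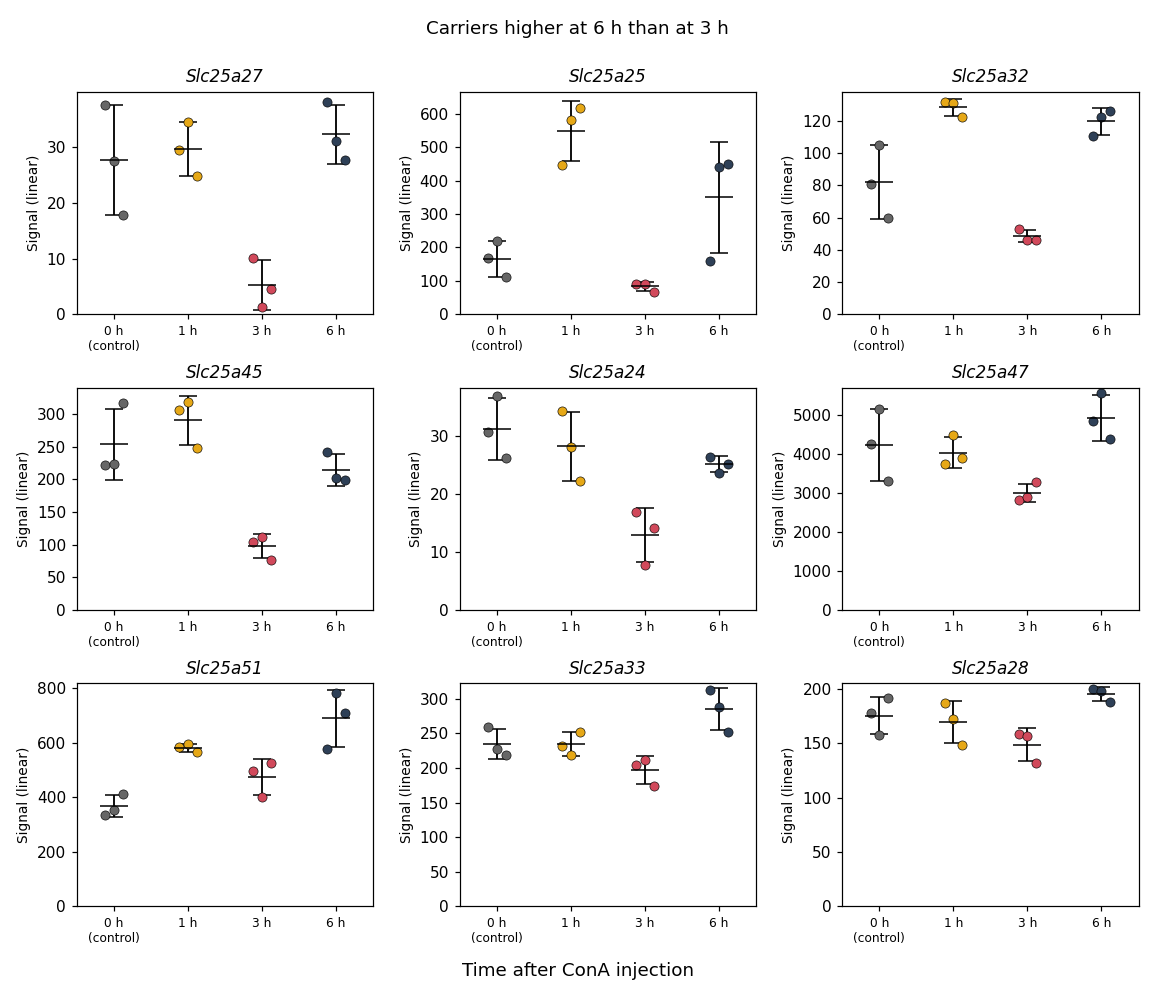
Signal on each array (points, vertical axes from 0) over time after ConA (horizontal axes) for the 9 carriers that were higher at 6 h than at 3 h as deposited, with the mean and SD of 3 arrays in black. For Slc25a45 the 3 h arrays sit between 76.7 and 112, below every array of the other times.

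Of the 6 carriers of phosphate, metals and protons, 1 was lower at 3 h, beside 14.7% of all genes, and 1 at 6 h, beside 12.7%, which is near the background. Slc25a37, or mitoferrin 1, which imports iron for haem and is most abundant in red cell precursors, had signals of 282, 258 and 298 in controls, 285, 194 and 199.7 after 1 h, 254, 245 and 244 after 3 h and 129.0, 148 and 94.4 after 6 h. Its 6 h arrays were below all others. The log2 change at 6 h was -1.20 (SE 0.187, adjusted p = 0.0012) and the difference from 3 h -1.02 (adjusted p = 0.0048). None of the 3 measured erythroid markers was called at 6 h. Their summed signal was 470.8 to 482.5 at 6 h and 703 to 789.6 in controls. This sum is mostly Alas2, the haem synthesis enzyme of red cells. Mean control signals were 721.8 for Alas2, 19.95 for Slc4a1 and 8.21 for Hba-a1. At 6 h Alas2 stood at -0.69 on the log2 scale (adjusted p = 0.051) and Slc4a1 at 0.08 (adjusted p = 0.95). Hba-a1, under the floor on 2 of the 6 h arrays, stood at -0.40 (adjusted p = 0.81). The part of red cell RNA in the fall of Slc25a37 was not tested. Slc25a28, or mitoferrin 2, the form of other tissues, had 0.16 at 6 h (adjusted p = 0.40).

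Slc25a27, a relative of the uncoupling proteins known mainly from brain, had signals of 37.6, 27.5 and 17.9 in controls, 29.5, 34.5 and 24.8 after 1 h, 10.1, 1.23 and 4.57 after 3 h and 38.1, 31.2 and 27.7 after 6 h. It was low on every 3 h array and near the controls at the other times. The log2 change at 3 h was -2.35 (SE 0.417, adjusted p = 0.0045) and 6 h exceeded 3 h by 2.62 (adjusted p = 0.0027), with 1 array at 3 h raised to the floor, so that both values depend on it. With a pseudocount of 1 and no floor the change of Slc25a27 at 3 h was -2.41 (adjusted p = 0.0093). The probe set was dim, and its 3 other probe sets, dimmer still with mean signals from 1.91 to 5.87, were not called at any time. Slc25a3, the phosphate carrier that feeds ATP synthase, had -0.14 at 6 h (adjusted p = 0.27) and was called lower after quantile normalization (-0.27, adjusted p = 0.0073) and centring (-0.28, adjusted p = 0.013). Slc25a30 had signals of 354, 807 and 234 at 1 h, against 185, 279 and 175 in controls, and did not pass (0.96, adjusted p = 0.43).

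Among the 7 members grouped as having no settled substrate, 2 were lower at 3 h, beside 14.7% of all genes, and 3 at 6 h, beside 12.7%. Slc25a45 had signals of 222, 224 and 316.5 in controls, 306, 318 and 248 after 1 h, 104, 112 and 76.7 after 3 h and 242, 203 and 199 after 6 h. The 3 h arrays lay below all others. It was lower at 3 h (log2 change -1.38, SE 0.192, adjusted p = 0.0013), with -0.23 at 6 h (adjusted p = 0.45) and 1.15 for 6 h over 3 h (adjusted p = 0.0033). Slc25a48 had 87.7, 63.0 and 62.7 in controls, 76.0, 65.8 and 94.9 after 1 h, 59.4, 62.2 and 65.2 after 3 h and 38.2, 36.6 and 33.8 after 6 h. Here the 6 h arrays were the ones below all others (log2 change -0.96 at 6 h, SE 0.163, adjusted p = 0.0020, and -0.78 against 3 h, adjusted p = 0.0088).

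Slc25a46, an outer membrane member that acts in mitochondrial shape and fission, had signals of 378, 399 and 409.8 at 3 h and 353, 369 and 336 at 6 h, against 576, 675 and 478 in controls. It was lower at both times (log2 change -0.53, SE 0.119, adjusted p = 0.013 at 3 h, and -0.70 with adjusted p = 0.0020 at 6 h). Its other probe set, with a mean signal of 350, was lower at 3 h (-0.40, adjusted p = 0.043 over all probe sets). At 6 h that probe set did not pass (-0.32, adjusted p = 0.076). Slc25a34 was dim, with 32.0, 47.3 and 35.7 in controls, 26.2, 36.2 and 57.8 after 1 h, 21.5, 15.7 and 17.8 after 3 h and 12.3, 26.1 and 18.2 after 6 h. Its log2 change was -1.06 at 3 h (SE 0.337, adjusted p = 0.055) and, by 6 h, -1.07 (adjusted p = 0.041). The call at 6 h was lost without 1 of 9 arrays (all controls, all 3 h arrays, ConA 1 h replicate 2, ConA 6 h replicate 1 or 3, adjusted p = 0.052 to 0.13). Slc25a35, Slc25a53 and Slc25a54 passed no test.

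Other probe sets of the same genes bear on how far a call rests on 1 probe set. Of the 44 carriers 23 had more than 1 probe set, with 49 other probe sets in all, each dimmer than the chosen one. At 6 h 11 of the 49 were called over all probe sets, and at 3 h 7, and the share of all probe sets called was not taken. The sign of the chosen probe set was shared by 32 of the 49 at 1 h, 36 at 3 h and 31 at 6 h. The single called one whose sign opposed that of the chosen probe set belonged to Slc25a12 at 6 h (-1.73, adjusted p = 0.043, mean signal 12.7). For Slc25a5 all 7 others had negative log2 changes at 3 h and 6 h. For Slc25a29 a dim one was lower at 3 h (-2.07, adjusted p = 0.031) where the chosen one was not (-0.53, adjusted p = 0.17 over all probe sets). The same held for Slc25a4 at 3 h (-0.83, adjusted p = 0.016, against -0.73, adjusted p = 0.13 for the chosen one). At 6 h it held for Slc25a17, whose other probe set had a mean signal of 9.81 (-2.14, adjusted p = 0.00063, against -0.32, adjusted p = 0.17). Besides Slc25a31, 5 carriers were under the floor on some arrays, namely Slc25a2, Slc25a18, Slc25a27, Slc25a41 and Slc25a54, and their changes depend on the floor.

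Genes that work beside the carriers were also lower more often than higher at 6 h. Among enzymes that make or use what the carriers move, 11 of 23 were lower and 1 higher at 6 h, beside the 12.7% and 15.4% of all genes, with a median log2 change of -0.44. At 1 h Alas1, the haem synthesis enzyme of liver, was the one called (1.49, adjusted p = 0.013), and at 3 h 2 of 23 were lower, beside 14.7% of all genes. Acly, which splits the citrate exported by Slc25a1, had 752, 829.9 and 685 at 6 h, against 2818, 3118 and 3388 in controls (log2 change -2.04, SE 0.354, adjusted p = 0.0022). Got1, the cytosolic aminotransferase of the malate-aspartate shuttle (-1.82, adjusted p = 0.00042), Gpd1, the cytosolic enzyme of the glycerol phosphate shuttle (-1.22, adjusted p = 0.00015), and Me1, malic enzyme (-1.18, adjusted p = 0.027), were lower as well. Pcx, pyruvate carboxylase of the matrix, was higher (0.56, adjusted p = 0.0018).

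Of 19 measured genes for other transport across the mitochondrial membranes, 10 were lower and none higher at 6 h, beside 12.7% and 15.4% of all genes, and 6 were lower at 3 h, beside 14.7%. They included the sideroflexins Sfxn5 (-1.14, adjusted p = 0.00074) and Sfxn2 (-1.03, adjusted p = 0.00090), of a family that carries serine and other amino acids, the ABC transporter Abcb6 (-1.14, adjusted p = 8.6e-05) and Cpt1a, which makes the acylcarnitines that Slc25a20 carries (-0.95, adjusted p = 0.013). Of 14 genes for the import of carrier proteins, 6 were lower and 2 higher at 6 h, beside the same 12.7% and 15.4%. The small chaperones of the intermembrane space went both ways, with Timm8a1 (-1.27, SE 0.163, adjusted p = 0.00040), Timm9 (-0.56, adjusted p = 0.012) and Timm10 (-0.53, adjusted p = 0.0014) lower, and Timm10b, with 1283, 1266 and 1260 at 6 h against 761, 669.5 and 712.5 in controls, higher (0.83, adjusted p = 0.0068). Of 4 measured SLC25 genes that carry other symbols, Mtch1 was lower (-0.60, adjusted p = 0.0046) and Mtch2, Ucp1 and Ucp3 were not called at 6 h.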

How the data were processed

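Total RNA of whole liver from 12 mice, 3 at each of 4 times, was hybridised by the authors to Affymetrix mouse arrays. The deposited values are linear signal intensities per probe set, 1 column per array. The submitters' processing notes name MAS5 5.0 and the study's methods name RMA, so how the intensities were scaled is not settled, and they were used as deposited. Of 45037 probe sets tested, after 64 control probe sets were left out, 34945 carried 1 gene symbol, 932 several and 9160 none in the platform annotation. Symbols were updated by Entrez ID for 34741 and kept for 204, and the probe set with the highest mean stood for each of 18193 genes. A Slc25 probe set with several symbols was left out.

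Intensities under 3.04, the 20th percentile of all values, were raised to it and log2 taken. A linear model with 4 groups, no covariate and moderated variances (limma 3.58.1, R 4.3.3, python 3.11.15) was fitted over all genes, and p-values were adjusted by Benjamini-Hochberg over all of them, with 0.05 as threshold. The script was tested on simulated data. The number of arrays limits the precision, and the labels do not say how arrays were spread over batches.

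Described in full were carriers past the F test with an absolute log2 change of at least 1 at a time whose 3 arrays lay beyond all 3 controls, which took in 14, and carriers with well known liver roles whatever their values, which added 3 (Slc25a1, Slc25a20 and Slc25a47). Other carriers are given by counts with any call named, and of these Slc25a32, Slc25a48 and Slc25a51 are shown with all signals, chosen after their values were seen. Of each neighbouring gene list up to 4 genes with the largest called changes at 6 h are named. Beyond these, Pcx is named as the 1 enzyme higher at 6 h, and Alas1 for its call at 1 h. The members, lists and tests were chosen with earlier results of these data known. Promoters came from RefSeq (GRCm38.p6), and protein sequences were not used here. Alternatives were quantile normalization, median centring, a pseudocount of 1 without a floor, brighter genes only, an intensity trend, a replicate block, only the groups compared, other uses of the probe sets, and leaving out each array.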

Additional observations from a re-analysis of the deposited data

Results flagged for a closer look

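The tests between successive times, that is of the effect at one time against the effect at the time before, passed for 32 pairs of carrier and step (limma, adjusted p under 0.05). Since both effects are taken against the same controls, each is the plain log2 difference between the later and the earlier time. No carrier was tested for a single outlying array, because each time had 3 arrays.

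From 1 h to 3 h all 13 differences were negative. They were -2.72 for Slc25a25, -2.50 for Slc25a27, -1.58 for Slc25a45, -1.41 for Slc25a32 and -1.17 for Slc25a24. Smaller ones were -1.06 for Slc25a34, -1.03 for Slc25a4, -0.71 for Slc25a46, -0.67 for Slc25a16 and -0.59 for Slc25a42. The remaining 3 were -0.48 for Slc25a20, -0.46 for Slc25a13 and -0.43 for Slc25a15.

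From 3 h to 6 h 10 differences were negative. They were -1.25 for Slc25a42, -1.10 for Slc25a10, -1.02 for Slc25a37, -1.00 for Slc25a22 and -0.95 for Slc25a23, and further -0.94 for Slc25a15, -0.78 for Slc25a48, -0.74 for Slc25a13, -0.66 for Slc25a17 and -0.60 for Slc25a11. The other 9 were positive, with 2.62 for Slc25a27, 1.94 for Slc25a25, 1.30 for Slc25a32, 1.15 for Slc25a45 and 1.03 for Slc25a24. Below 1 were 0.71 for Slc25a47, 0.54 for Slc25a51, 0.53 for Slc25a33 and 0.39 for Slc25a28. Both steps share the 3 h arrays. Of these 9, the calls for Slc25a25, Slc25a27, Slc25a32 and Slc25a45 were also made under both other scalings of the arrays.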

How the results depend on the processing

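The 16 lower and 2 higher calls at 6 h were also made after quantile normalization and after median centring. Both called Slc25a2, Slc25a3 and Slc25a39 lower too (19 each), beside 3226 and 3240 of all 18193 genes, against 2307 as deposited. The calls at 3 h moved more. The median log2 change of all genes at 3 h was -0.05 after quantile normalization and 0 after centring, against -0.21 as deposited. Centring gave 6 lower and 3 higher carriers at 3 h, beside 1251 and 1521 of all genes, and a median carrier change of -0.14. Quantile normalization gave 2 higher at 3 h, beside 1449 of all genes, and a median of -0.25. At 6 h the median was -0.43 after centring and -0.42 after quantile normalization. Between 1 h and 3 h, 5 were lower and 1 higher after centring, and 6 and 1 after quantile normalization. Over all genes the lower calls of that step went from 3620 as deposited to 904 and 973. Between 3 h and 6 h, 18 were lower and 4 higher after centring, and 4 were higher after quantile normalization. Over all genes the lower calls of this step went from 697 as deposited to 2276 after centring and 1863 after quantile normalization. With a pseudocount of 1 in place of the floor, 1 carrier was higher at 3 h, beside 846 of all genes. The carrier median at 3 h was then -0.42. At 1 h 3 carriers were higher among brighter genes, beside 4.28% of those genes. With an intensity trend 1 carrier was higher at 1 h (Slc25a51), beside 307 of all genes, and with probe sets averaged 1 (Slc25a32), beside 303. The cause of these moves was not tested.

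Leaving out 1 array at a time gave 0 to 2 carriers higher at 1 h, beside 193 to 320 of all genes. At 3 h 0 to 1 were higher, beside 757 to 965 genes, and 7 to 14 lower, beside 1620 to 2905. At 6 h 1 to 2 were higher, beside 2179 to 2869 genes, and 13 to 17 lower, beside 1794 to 2383. Between 1 h and 3 h 7 to 15 were lower, beside 1872 to 3784 genes. Between 3 h and 6 h 5 to 11 were higher, beside 2248 to 3609 genes. The median change of the carriers ran from -0.49 to -0.31 at 3 h and from -0.33 to -0.19 at 6 h. No named carrier changed direction while called.

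Arrays with the same replicate number did not deviate together (correlation of residuals -0.01 to 0.04 over 18 pairs, -0.06 to 0.03 over 36 other pairs), so the numbers were not taken as pairs. With a replicate block 14 carriers were lower at 3 h, beside 2627 of all genes. At 6 h 16 were lower and 2 higher, beside 2349 and 2801 genes. Between 1 h and 3 h 13 carriers fell, beside 3676 genes. Between 3 h and 6 h the block gave 10 carriers lower and 10 higher, beside 730 and 3401 genes. Of the named carriers Slc25a5 at 3 h lost its call (adjusted p = 0.059 with limma). Signals near the floor limit what can be read for 6 carriers.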
